A study of Mus musculus with 288 samples.

Results

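Chemokine ligand genes were followed in the mouse as a family, over 2 days of constant darkness and in 12 tissues. Members were taken by symbol: every gene named Ccl, Cxcl or Cx3cl with a number, together with Ppbp, Pf4 and Xcl1. This gave 36 of the 19938 genes with a probe set of a single symbol, of which 19 encode CC chemokines, 15 CXC chemokines, 1 the CX3C chemokine and 1 an XC chemokine. Where a gene had several probe sets, the brightest on average was used. The mice were of strain C57/BL6, spent 1 week in 12 h of light and 12 h of dark, and then lived in constant darkness. No genotype or treatment was varied, and sex and age are not given in the sources used here. Liver, kidney, lung, heart, aorta, skeletal muscle, brown and white adipose, adrenal gland and 3 brain regions (hypothalamus, cerebellum and brainstem) were sampled every 2 h. Each tissue gave 24 arrays from circadian time (CT) 18 to CT64 (subjective day from CT0, subjective night from CT12), with RNA of 3 mice pooled on each array. There was 1 array per time point, so n = 24 arrays for every wave within a tissue, and p-values rest on how far single pools scatter from the fitted curve. In RNA of a whole organ, fewer cells of a type and less RNA per cell cannot be told apart.

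Chemokines are small secreted proteins that bind to heparan sulphate on cells and matrix and guide leukocytes through G protein-coupled receptors. Homeostatic members such as Cxcl12, Cxcl13, Ccl19 and Ccl25 are made constantly and place stem cells, B cells and T cells in bone marrow, lymphoid follicles and thymus. Inflammatory members are induced through NF-kB or interferon signalling and call in neutrophils, monocytes, eosinophils or effector T cells. The release of leukocytes to blood and their homing to tissues are known to vary over the day in mice, with rhythmic Cxcl12 in bone marrow as a well studied case.

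All 12 tissues were the highest of the series for the mean of their own marker list. The margin was smallest for brown adipocyte markers, at 10.36 (log2 intensity) in brown adipose and 10.05 in aorta. On 17 arrays of 7 tissues the mean of some marker list lay at least 1 log2 unit and 5 scaled median absolute deviations (MAD) from the tissue median. These arrays include white adipose at CT22 (lung epithelium markers) and skeletal muscle at CT22, CT24, CT42, CT44 and CT46 (B cell markers), and both touch results below. Of 12 measured core clock genes, between 8 (hypothalamus) and 12 were rhythmic in each tissue.

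Levels of the ligands were spread unevenly over the organs. For 11 of the 36 members (30.6%) the highest tissue mean exceeded the median of the 12 tissue means by at least 2 log2 units, against 21.5% of all genes. Cxcl15, also called lungkine, showed the widest gap. Its lung arrays read between 11.43 and 12.21 with a median of 11.91, while its mean in every other tissue was 5.12 or lower. The lung was also the highest tissue for Ccl17, a ligand of Ccr4 made by dendritic cells, for Ppbp and for Cxcl16. The liver was highest for Ccl9 and Cxcl11, the kidney for Ccl28, which recruits plasma cells to mucosae, and the hypothalamus for Cx3cl1 or fractalkine, the neuronal ligand of the microglial receptor Cx3cr1. White adipose was highest for Ccl11, Ccl6 and Cxcl9.

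Separation between tissues was another measure of level. In 9 of 36 members (25%) every array of the highest tissue lay above all arrays of the other tissues, against 31.6% of all genes. Ccl9 had liver arrays between 10.49 and 11.08, and its next tissue, white adipose, reached 9.24. Cx3cl1 arrays of the hypothalamus lay between 10.05 and 10.95, and those of the brainstem between 9.57 and 9.94. Cxcl12 in liver ranged from 10.51 to 11.07, above heart with a highest array of 9.86. By contrast, Cxcl16 did not separate its top tissues, with a mean of 9.10 ± 0.08 (SD, n = 24 arrays) in lung and 9.03 ± 0.09 in kidney and overlapping ranges. These levels are descriptive, because the arrays of different tissues appear to have been normalized apart. On the scale of percentiles within an array, 30 of 36 members kept their highest tissue, and Cx3cl1 and Cxcl2 no longer separated it from the others.

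**Figure D1:**
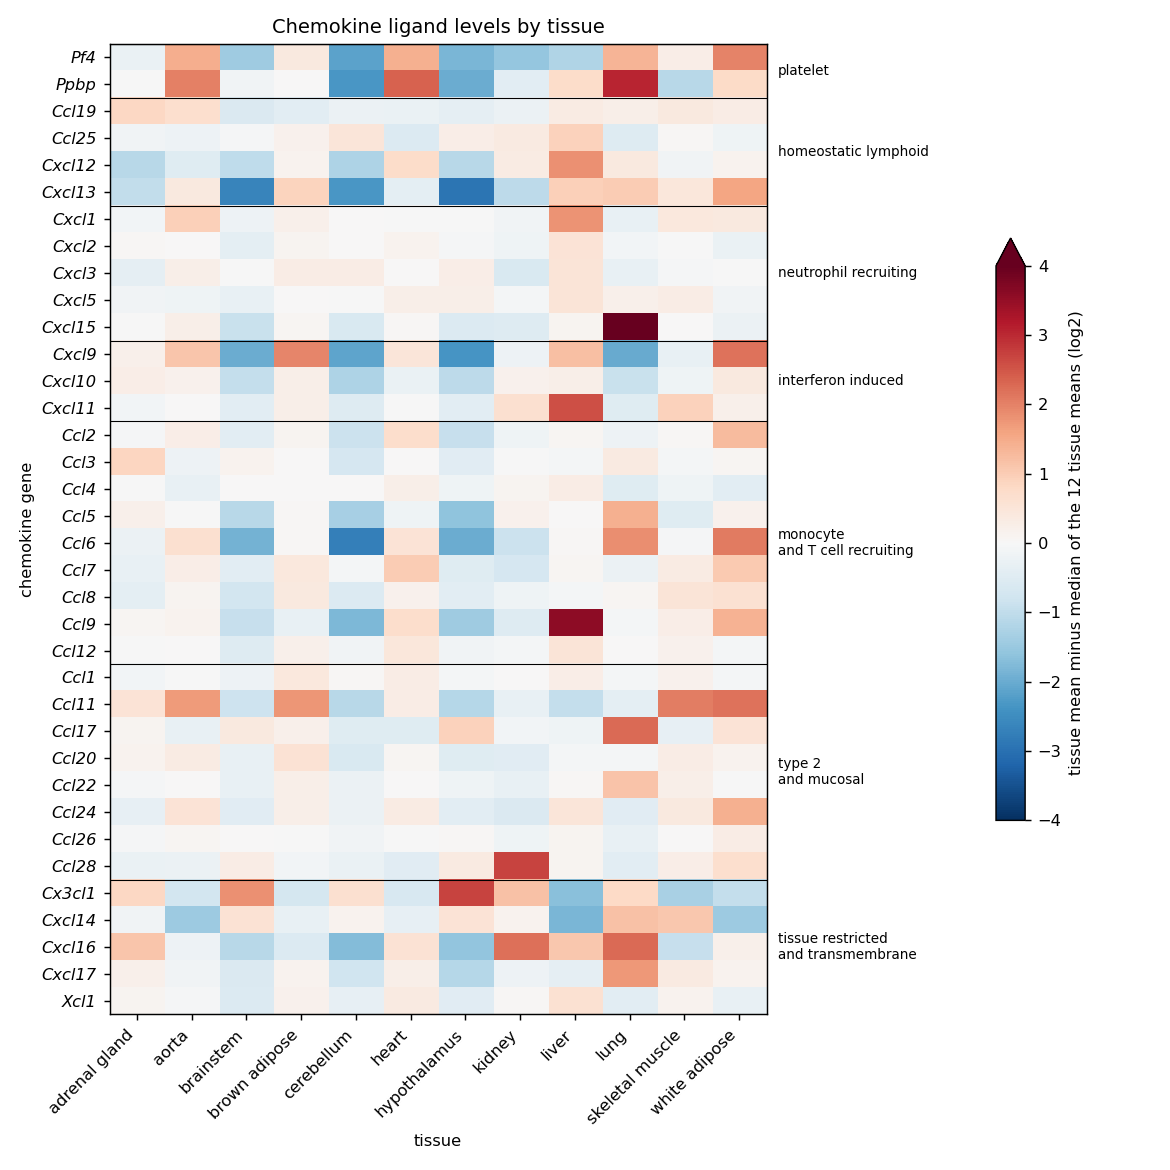
Mean log2 intensity of each of the 36 chemokine genes (rows, grouped by role) in each tissue (columns), shown as the difference from the median of the 12 tissue means of that gene. Red cells stand out for Cxcl15, Ppbp and Ccl17 in lung, Ccl9 and Cxcl11 in liver, Ccl28 in kidney and Cx3cl1 in hypothalamus.

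Daily waves were tested with a cosine and sine of 24 h (limma's moderated F test). P-values were adjusted by Benjamini-Hochberg across the 19938 genes, separately in each tissue, and rhythmic means an adjusted p below 0.05. Of 432 pairs of member and tissue, 67 (15.5%) were rhythmic, against 11% of all pairs of gene and tissue. These pairs came from 28 of 36 members (77.8%, against 58.9% of all genes in at least 1 tissue). Most waves were shallow: 46 had a peak-to-trough fold under 1.3 and 9 a fold over 1.5, and the median fold was 1.24, beside 1.203 over all rhythmic genes. In 65 of the 67 the separately fitted peaks of the first and the second day lay within 4 h of each other. The exceptions were Ccl28 in kidney and Cx3cl1 in brown adipose. The arrays of both days entered the fit by which these pairs were called, so this count is a description and not a replication. In every setting that could be run, 28 of the 67 calls held. The setting of genes above the tissue median took in 48 of the 67 pairs, as the others were dimmer. For members with 1 probe set, the setting of second probe sets repeats the same values. The members rhythmic in no tissue were Ccl1, Ccl4, Ccl7, Ccl8, Ccl12, Ccl26, Cxcl2 and Cxcl3.

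The share of rhythmic pairs varied by role. Homeostatic lymphoid ligands were rhythmic in 17 of 48 pairs (35.4%) and the platelet chemokines in 7 of 24 (29.2%). Tissue restricted and transmembrane ligands were rhythmic in 12 of 60 pairs (20%), interferon induced ligands in 6 of 36 (16.7%) and type 2 and mucosal ligands in 13 of 96 (13.5%). Monocyte and T cell recruiting ligands followed with 9 of 108 pairs (8.33%) and neutrophil recruiting ligands with 3 of 60 (5%). These shares stand beside the same 11% over all genes, and differences among roles were not tested. By tissue, 13 members were rhythmic in lung (20.9% of all genes there), 11 in kidney (25.8%), 9 in liver (26.8%), 6 in brown adipose (16.5%) and 6 in skeletal muscle (5.12%). Adrenal gland and brainstem had 5 each (5.89% and 4.78%), aorta and heart 4 each (5.09% and 8.64%), white adipose 2 (4.85%), and cerebellum and hypothalamus 1 each (5.49% and 1.80%).

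**Figure D2:**
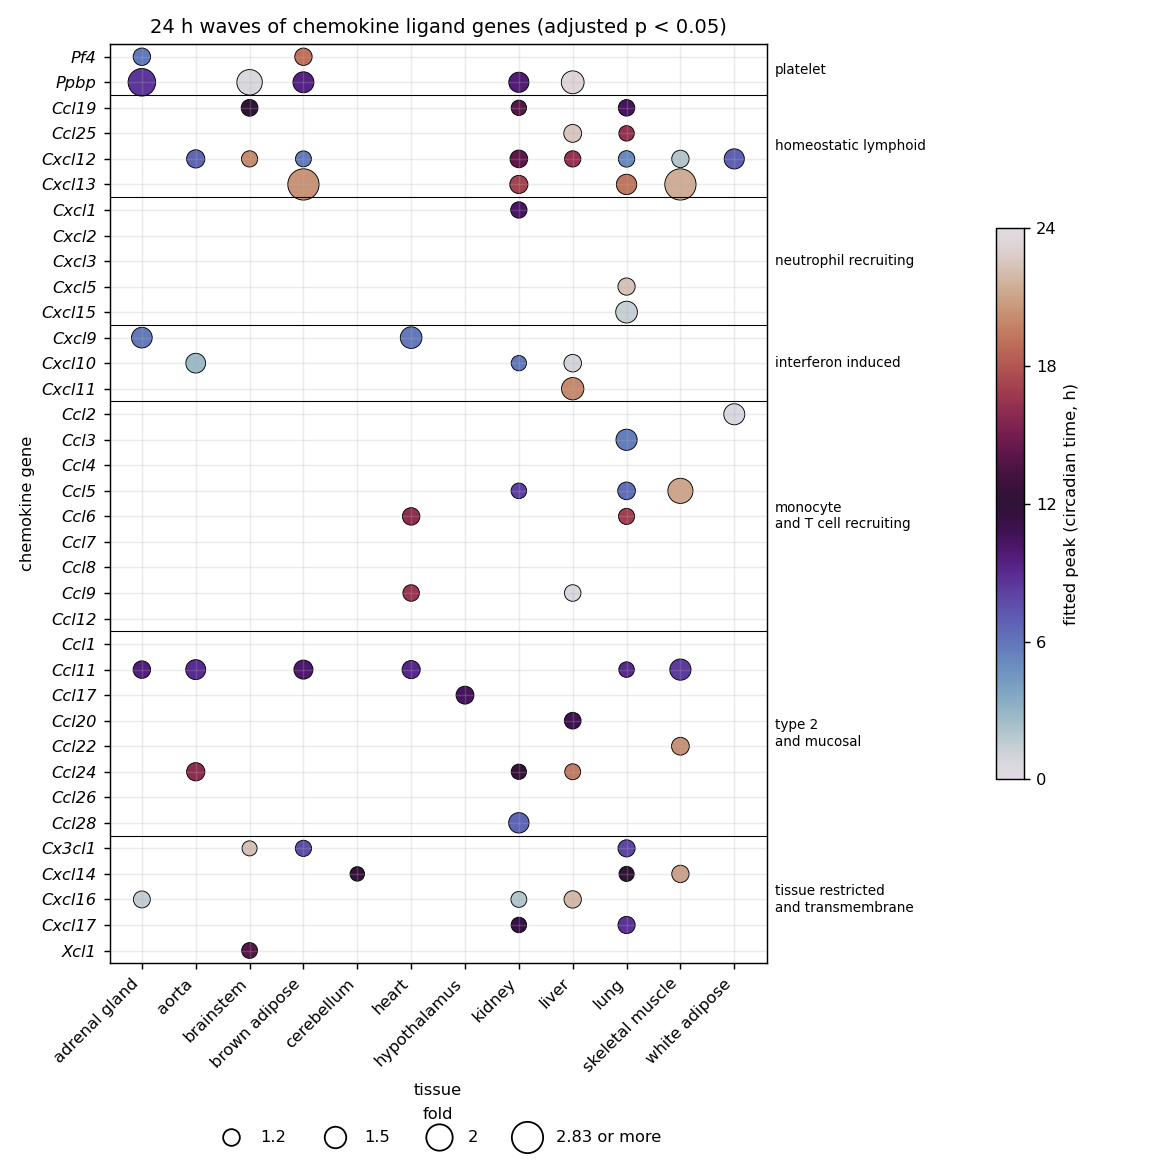
Rhythmic pairs of chemokine gene (rows, grouped by role) and tissue (columns); the colour of a point is the fitted peak in circadian time and its size the peak-to-trough fold. Cxcl12 has points in 8 tissues with several colours, Ccl11 has points in 6 tissues of nearly the same colour, and the 2 largest points are Cxcl13 in skeletal muscle and brown adipose.

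The DNA just upstream of 4 genes is shown because their waves were the most widespread or the largest in a tissue. Each line gives the 250 bases before the RefSeq start site (build GRCm38.p6, plus strand, 5′ to 3′), at chr6:117168285-117168534 for Cxcl12, chr5:95956689-95956938 for Cxcl13, chr5:90768268-90768517 for Ppbp and chr5:90794284-90794533 for Cxcl15. Capitals mark matches on either strand to 4 motifs: the E-box CACGTG bound by Clock and Arntl, the site AGGTCA bound by ROR and REV-ERB receptors, an NF-kB pattern (GGG, any 5 bases, CC) and an interferon response pattern (GAAA, any 2 bases, GAAA).
Cxcl12: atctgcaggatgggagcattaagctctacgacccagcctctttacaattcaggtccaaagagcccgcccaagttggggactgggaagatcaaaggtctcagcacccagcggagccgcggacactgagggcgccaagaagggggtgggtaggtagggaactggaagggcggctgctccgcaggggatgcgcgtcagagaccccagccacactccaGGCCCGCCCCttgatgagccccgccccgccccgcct
Cxcl13: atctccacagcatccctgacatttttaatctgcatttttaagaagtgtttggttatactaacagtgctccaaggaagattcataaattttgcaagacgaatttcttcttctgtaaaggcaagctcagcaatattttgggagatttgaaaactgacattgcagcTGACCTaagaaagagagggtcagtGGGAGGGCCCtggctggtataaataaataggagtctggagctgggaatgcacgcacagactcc
Ppbp: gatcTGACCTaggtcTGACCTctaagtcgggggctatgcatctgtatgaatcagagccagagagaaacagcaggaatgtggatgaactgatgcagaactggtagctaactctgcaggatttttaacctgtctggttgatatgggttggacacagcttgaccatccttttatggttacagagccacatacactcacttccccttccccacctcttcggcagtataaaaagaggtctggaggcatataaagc
Cxcl15: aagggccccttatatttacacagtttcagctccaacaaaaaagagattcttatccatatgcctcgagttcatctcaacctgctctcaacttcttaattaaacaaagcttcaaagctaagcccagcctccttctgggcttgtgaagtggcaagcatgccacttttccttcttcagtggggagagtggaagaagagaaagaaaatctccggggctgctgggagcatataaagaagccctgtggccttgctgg
In these windows Cxcl12 held 1 NF-kB match, Cxcl13 held 1 AGGTCA match and 1 NF-kB match, Ppbp held 2 AGGTCA matches, and Cxcl15 held no match to the 4 patterns. RefSeq windows were found for 25 members, with 26 windows in all. AGGTCA was in 10 of the 26 windows and in 14% of 32851 windows of all genes, and the NF-kB pattern was in 13 of 26 and in 45.8% of all. The E-box was in 1 window, that of Cxcl3 (6.02% of all), and the interferon pattern in those of Ccl19, Cxcl10 and Cxcl14 (2.98% of all). Cxcl3, the member with the E-box, was rhythmic in no tissue. A match is a description of the letters, and no binding was measured.

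The platelet chemokines, which megakaryocytes make and platelets store in their granules, gave waves that differed in timing. Ppbp, the precursor of the neutrophil attractant known as NAP-2, was rhythmic in 5 tissues (5.20% of all genes in at least 5). In adrenal gland its arrays ranged from 6.62 at CT42 to 8.59 at CT32 around a median of 7.78, and the wave had a fold of 2.16 (95% interval 1.59 to 2.95) with a peak at CT8.5 ± 0.7 (SE; adjusted p = 0.0063 by limma). The arrays of 8.20 or more, at CT30 to CT34, CT50 and CT56, all fell in the subjective day, while CT40 and CT64 in the night read 8.02 and 8.05. In brainstem Ppbp ran from 6.52 at CT36 to 8.16 at CT44 (median 7.59), with a fold of 1.89 (1.478 to 2.41) and a peak at CT0.6 (adjusted p = 0.0038). The brainstem arrays from CT34 to CT40 were the low ones of the first cycle, at 6.80, 6.52, 6.93 and 6.82.

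Ppbp peaked at CT9.4 in brown adipose (1.46-fold), at CT9.8 in kidney (1.40-fold) and at CT23.4 in liver (1.61-fold). Tests between pairs of these tissues found a difference in 4 of 10, against 12.6% over all genes in the same pairs. Here and below, such pairs were chosen because the member was rhythmic in both tissues of these same data. Most of all genes were not, so the shares are not like for like. The wave of adrenal gland differed from those of brainstem (adjusted p = 0.0013) and liver (adjusted p = 0.0024), and that of brainstem from those of brown adipose (adjusted p = 0.032) and kidney (adjusted p = 0.038). On the rank scale the Ppbp call was lost in adrenal gland (adjusted p = 0.061), brainstem (adjusted p = 0.11), brown adipose (adjusted p = 0.074) and liver (adjusted p = 0.081), and it held in kidney. Brown adipose also lost it with macrophage and neutrophil markers as a covariate (1.24-fold, adjusted p = 0.36). Of the other platelet markers, 4 of 7 were measured, and the only call among them in any tissue was Treml1 in kidney.

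Pf4, platelet factor 4, lies next to Ppbp on chromosome 5. It was rhythmic in adrenal gland (1.24-fold, peak CT5.9, adjusted p = 0.042) and in brown adipose (1.23-fold, peak CT19.1, adjusted p = 0.043), and these waves differed (adjusted p = 0.0014). Its arrays in adrenal gland ran from 6.07 to 6.83 and in brown adipose from 6.82 to 7.56, and both folds lay below each of those of Ppbp. Each Pf4 call was lost under 5 or more settings, among them leaving out the arrays that stand apart (adjusted p = 0.11 and 0.075).

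Among the homeostatic ligands, Cxcl12 was rhythmic in the most tissues of all 36 members, at phases spread over the cycle. It encodes the ligand of Cxcr4 that retains haematopoietic stem cells and neutrophils in the marrow. It was rhythmic in 8 tissues, as 0.918% of all genes were. White adipose showed its deepest wave: arrays ranged from 8.71 at CT40 to 9.44 at CT34 (median 9.04), with a fold of 1.40 (1.24 to 1.59) and a peak at CT6.9 (adjusted p = 0.0038). The arrays at CT30, CT32 and CT34 and at CT54, CT56 and CT60 all read 9.37 or more, and no other array passed 9.26.

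Day peaks of Cxcl12 were also found in aorta (CT6.7, 1.28-fold), brown adipose (CT5.8, 1.16-fold) and lung (CT5.1, 1.19-fold). Kidney was timed otherwise. Its arrays ran from 8.94 at CT26 to 9.45 at CT38 (median 9.30), with a fold of 1.25 (1.18 to 1.33) and a peak at CT14.3 ± 0.5 (SE; adjusted p = 5.8e-06). Liver peaked at CT16.4 (1.18-fold), brainstem at CT20.0 (1.18-fold) and skeletal muscle at CT2.0 (1.23-fold). The liver call was lost with lymphocyte markers as a covariate (adjusted p = 0.054) and the muscle call on the rank scale (adjusted p = 0.13).

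Of the 28 pairs among these 8 tissues, 18 differed in their Cxcl12 wave, against 11.1% of such tests over all genes. The pairs were chosen by the Cxcl12 calls in the same arrays, so the shares are not like for like. White adipose differed from kidney (adjusted p = 9.9e-09), liver (adjusted p = 3.6e-09) and brainstem (adjusted p = 9.0e-10), with peaks 7.4 h, 9.5 h and 10.8 h apart. No pair among aorta, brown adipose, lung and white adipose passed the test (adjusted p from 0.084 to 0.98), nor did kidney against liver (adjusted p = 0.52) or liver against brainstem (adjusted p = 0.31). In kidney all 6 white adipocyte markers were rhythmic as well, at a mean peak of CT15.9, and their part in the Cxcl12 wave of that organ was not tested. In heart, where the level was second highest, the wave did not pass (1.07-fold, adjusted p = 0.19).

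**Figure D3:**
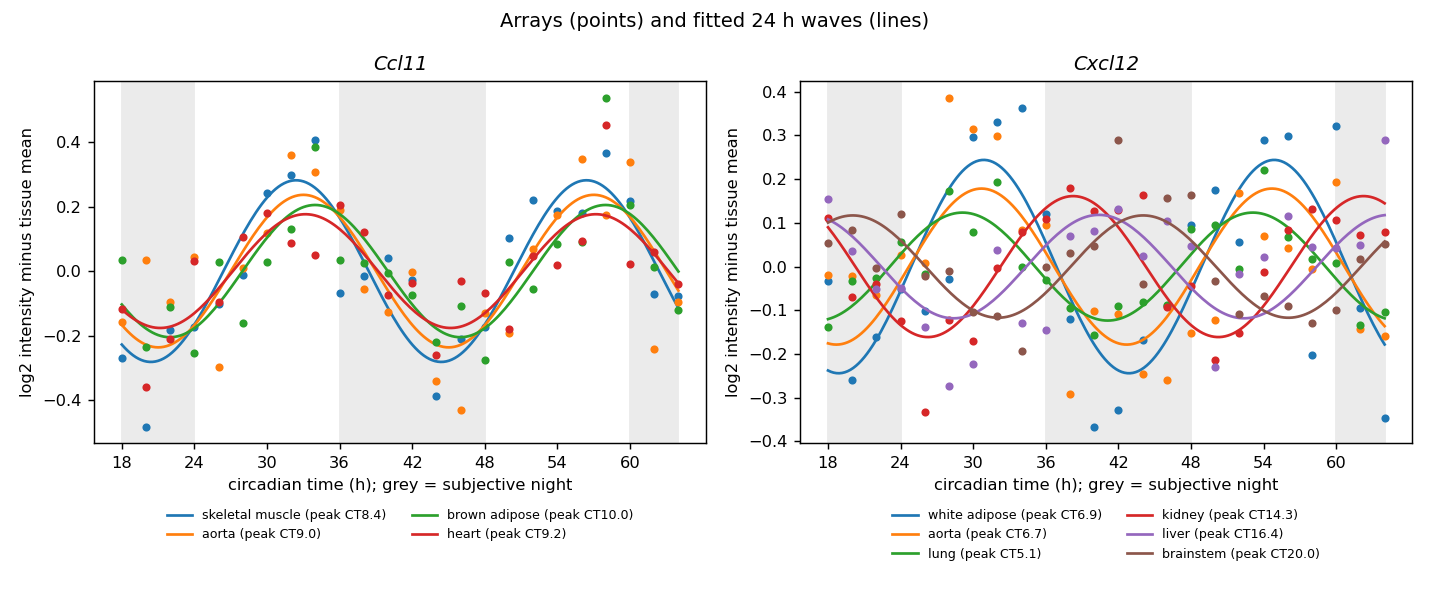
Log2 intensity minus the tissue mean for Ccl11 in 4 tissues and Cxcl12 in 6 tissues, by circadian time; points are arrays, lines the fitted 24 h waves, and grey marks the subjective night. The Ccl11 curves rise and fall together with peaks between CT8.4 and CT10.0, while those of Cxcl12 are spread over the cycle, from CT5.1 in lung to CT20.0 in brainstem.

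Cxcl13, the ligand of Cxcr5 that organises B cell follicles, had the deepest waves of the family. In skeletal muscle the arrays at CT20, CT22 and CT24 read 10.04, 10.73 and 10.78, and those at CT42, CT44, CT46 and CT48 read 10.76, 10.42, 11.55 and 9.40. The other 17 arrays, among them the night arrays at CT18, CT36 to CT40 and CT60 to CT64, lay between 6.66 and 7.42. High arrays thus fell in the subjective night, or at its end, on both days and no array lay between the 2 sets, and each of the 7 high arrays was an excursion from the tissue median of 7.12. The fitted fold was 12.3 (5.59 to 27.2) with a peak at CT21.4 ± 0.6 (SE; adjusted p = 0.00042).

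Lymphocyte markers moved on the same muscle arrays. The mean of the 7 measured B cell markers lay between 6.30 and 7.56 on the 7 arrays and between 5.49 and 5.74 on the other 17. T cell markers lay between 6.37 and 6.78 against 5.97 to 6.25, and white adipocyte markers between 8.93 and 9.76 against 7.72 to 8.71. Markers of lymph node stroma and follicles lay between 6.27 and 7.37 against 5.83 to 6.03. In that list Fcer2a, Cd22, Glycam1 and Cr2, which is also in the B cell list, had higher medians on the 7 arrays. Madcam1 (median 5.24 against 5.39) and Tnfsf11 (7.64 against 7.71) had lower ones. Skeletal muscle markers overlapped, between 13.56 and 13.63 against 13.55 and 13.63. Of the B cell list 6 of 7 genes were rhythmic in muscle, with a mean peak of CT21.0, and among them the B cell receptor gene Cd79b read between 7.72 and 9.56 on the 7 arrays and between 6.22 and 6.69 on the others.

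With lymphocyte markers as a covariate the Cxcl13 wave of muscle fell to 1.65-fold (adjusted p = 0.41). Without the arrays that stand apart it was 3.46-fold (adjusted p = 0.078), and on the rank scale the call was lost (adjusted p = 0.058). The part of these markers in the wave was not tested beyond these values.

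In brown adipose Cxcl13 was also high in the subjective night, or at its end, on both days. Its arrays at CT18, CT20 and CT22 read 10.49, 9.99 and 9.80, and those at CT42, CT44, CT46 and CT48 read 10.74, 9.40, 10.15 and 9.30. The remaining 17 lay between 6.94 and 8.68, so the high arrays again stood clear of the rest. The night arrays at CT36 to CT40 and CT60 to CT64 were among the remaining 17. The fold was 4.95 (2.97 to 8.23) with a peak at CT20.4 (adjusted p = 0.00017). The call held in all 11 alternative settings, of which that of second probe sets repeats the same values. The B cell list mean stayed between 5.42 and 5.66 there, and none of its genes was rhythmic.

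Other markers did cycle in brown adipose. The mast cell list had 5 of 6 rhythmic genes at a mean peak of CT20.1 and the fibroblast list 5 of 6 at CT21.5. Macrophage markers had 3 of 9 at CT20.0, and all 8 skeletal muscle markers were rhythmic at CT23.1, with a list mean from 6.83 to 11.77. With macrophage and neutrophil markers as a covariate the Cxcl13 fold was 2.18 (adjusted p = 0.006). The part of the other lists in the wave was not tested.

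Shallower Cxcl13 waves were found in lung (1.42-fold, peak CT19.3, adjusted p = 0.014) and kidney (1.28-fold, peak CT17.1, adjusted p = 0.024), so all 4 rhythmic tissues peaked in the subjective night. Kidney lost its call with lymphocyte markers as a covariate (adjusted p = 0.12) and without the arrays that stand apart (adjusted p = 0.058). Of the 6 pairs among these tissues 4 differed, against 10.3% over all genes. These pairs too were chosen by the calls of the member itself. Muscle differed from lung (adjusted p = 3.9e-07) and kidney (adjusted p = 2.3e-08), while muscle against brown adipose did not pass (adjusted p = 0.088). White adipose held the highest mean, 9.19 ± 0.58 (SD, n = 24 arrays), with arrays from 8.02 to 10.25 and a wave that did not pass (1.09-fold, adjusted p = 0.97). In aorta the wave did not pass (2.24-fold, adjusted p = 0.23), and its highest array, 10.17 at CT60, stands apart by B cell markers. Cxcl13 was lowest in the brain regions, with means of 5.27, 4.98 and 4.70 in cerebellum, brainstem and hypothalamus.

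**Figure D4:**
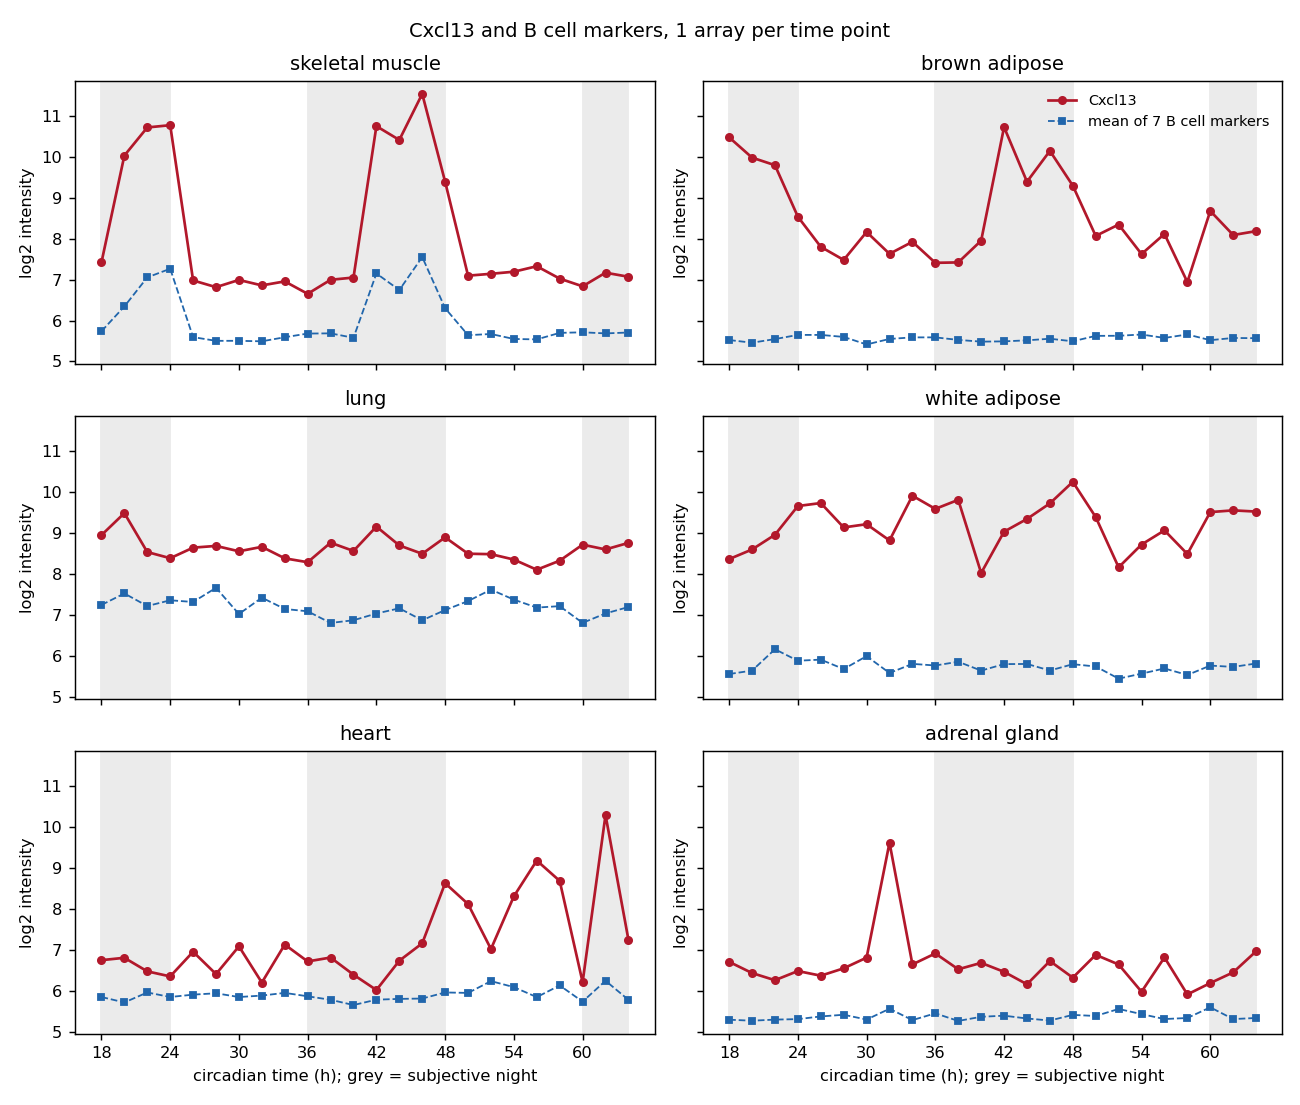
Cxcl13 (red) and the mean of 7 B cell markers (blue) on each array of 6 tissues, as log2 intensity by circadian time, with the subjective night in grey. Both rise on the same night arrays in skeletal muscle, Cxcl13 alone rises in brown adipose, adrenal gland has a single high array of 9.62 at CT32, and heart has several high arrays from CT48 on, up to 10.30 at CT62.

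Ccl19, the Ccr7 ligand of T cell zones, was rhythmic in kidney (1.14-fold, peak CT14.0, adjusted p = 0.0028), lung (1.19-fold, peak CT10.4, adjusted p = 0.001) and brainstem (1.2-fold, peak CT12.0, adjusted p = 0.0083). No pair of these tissues passed the test of a difference (adjusted p from 0.55 to 0.91, against 4.86% over all genes). In muscle Ccl19 reached 8.94 at CT24 against a median of 7.90, and its wave narrowly missed the threshold (1.47-fold, peak CT20.5, adjusted p = 0.057). Ccl19 has 5 probe sets with close to the same values, and signal from its near-identical copies cannot be told apart by them. Ccl25, a thymic and intestinal homing signal, was rhythmic in liver (1.26-fold, peak CT22.6, adjusted p = 0.0028) and lung (1.14-fold, peak CT16.4, adjusted p = 0.0073), and these waves differed (adjusted p = 0.00078). Its lung call was lost with the second probe set (adjusted p = 0.68).

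Of the ligands grouped as neutrophil recruiting, which does not include Ppbp, Cxcl15 in lung, Cxcl5 in lung and Cxcl1 in kidney were rhythmic. The Cxcl15 arrays of lung followed a regular course, from 12.08 at CT26 down to 11.43 at CT38, up to 12.21 at CT50 and down to 11.52 at CT62. The fold was 1.52 (1.45 to 1.59) and the peak CT1.4 ± 0.2 (SE; adjusted p = 5.8e-13), and the separately fitted days peaked at CT1.3 and CT1.4. This was the smallest adjusted p of the family, and the call held in all 11 settings. The mean of the lung epithelium markers lay between 11.70 and 11.80, and 3 of 6 passed the test with a median fold of 1.05 over the list. The neutrophil list, 6 of 8 genes rhythmic in lung, had a mean peak of CT1.2. With macrophage and neutrophil markers as a covariate the Cxcl15 fold was 1.53 (adjusted p = 2.1e-10).

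Outside the lung Cxcl15 was dim except on 1 array. White adipose at CT22 read 11.57, against 4.03 to 4.62 on the other 23 arrays of that tissue. The lung epithelium list read 10.83 on that array against a tissue median of 5.69, and 238 genes (1.19% of all) were upward excursions there. The difference between tissues in the Cxcl15 wave did not pass when all 288 arrays were fitted together (adjusted p = 0.15). In that test all tissues share 1 estimate of the spread, and the white adipose array at CT22 is part of it. It therefore cannot set the lung wave against the spread of the lung arrays alone.

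**Figure D5:**
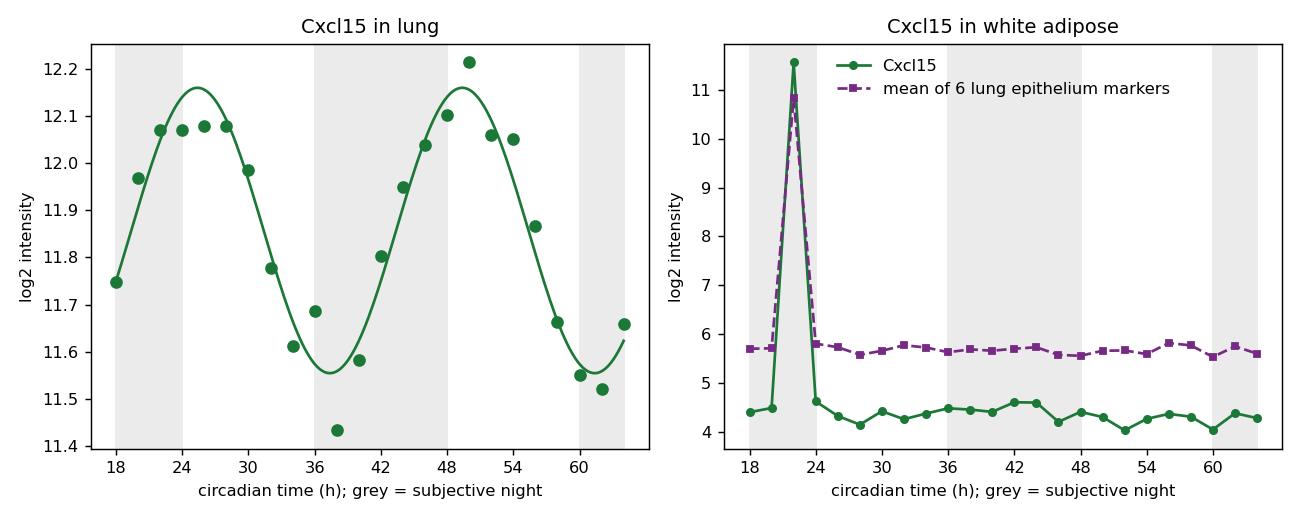
Left, Cxcl15 on the 24 lung arrays (points, log2 intensity) with the fitted 24 h wave (line); right, Cxcl15 and the mean of 6 lung epithelium markers in white adipose, with the subjective night in grey. The lung values follow the wave with a peak at CT1.4, and in white adipose both series jump on the CT22 array alone.

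Cxcl5, which epithelium makes and which has been tied to daily neutrophil influx in the mouse lung, was dim but rhythmic in lung. Its arrays ran from 4.59 to 5.10 (median 4.73), with a fold of 1.23 (1.14 to 1.31) and a peak at CT22.4 (adjusted p = 0.00022). Cxcl1, or KC, was rhythmic in kidney and in no other tissue (1.18-fold, peak CT10.2, adjusted p = 0.026). That call was lost with a straight line in time (adjusted p = 0.081) or lymphocyte markers (adjusted p = 0.079) as a covariate. Cxcl2 and Cxcl3 passed in no tissue, and Cxcl3 in lung came closest (1.08-fold, adjusted p = 0.055).

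The interferon induced ligands of Cxcr3, which attract activated T cells, each cycled. Cxcl9 in heart ran from 7.82 at CT62 to 8.65 at CT52 (median 8.27), with a fold of 1.52 (1.35 to 1.70) and a peak at CT5.9 (adjusted p = 2.3e-05). All arrays of 8.49 or more fell at CT28 to CT32, at CT48 and at CT52 to CT58. In adrenal gland it peaked at CT5.8 (1.44-fold, adjusted p = 0.046), and the heart and adrenal waves did not pass the test of a difference (adjusted p = 0.99). The adrenal call was lost under 6 of 11 settings, and the heart call under none.

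Cxcl11 was rhythmic in liver, its highest tissue, from 7.35 at CT34 to 8.51 at CT42 (median 7.98). The fold was 1.57 (1.32 to 1.87) and the peak CT20.1 (adjusted p = 0.00072). Cxcl10 peaked at CT0.9 in liver (1.24-fold, adjusted p = 0.0015), at CT2.7 in aorta (1.38-fold, adjusted p = 0.039) and at CT5.9 in kidney (1.14-fold, adjusted p = 0.037). The aorta and kidney waves of Cxcl10 differed (adjusted p = 0.04, against 12.9% over all genes in its 3 pairs). The kidney call was itself lost under quantile normalization (adjusted p = 0.068) and with lymphocyte markers as a covariate (adjusted p = 0.26). The aorta call was lost on the rank scale (adjusted p = 0.099) and with a straight line as a covariate (adjusted p = 0.061). In liver, 9 of 14 measured NF-kB and interferon factors were also rhythmic (26.8% of all genes there), with Stat2, Nfkbia, Irf9 and Stat3 the 4 of smallest adjusted p.

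Of the ligands for monocytes and T cells, 5 of 9 were rhythmic in at least 1 tissue, as were 58.9% of all genes. Ccl5, or RANTES, was rhythmic in skeletal muscle, where it shared the pattern of Cxcl13: 8.12 and 8.16 at CT22 and CT24, 7.77 and 7.95 at CT42 and CT46, and a tissue median of 6.91. The fold was 1.85 (1.44 to 2.37) with a peak at CT21.1 (adjusted p = 0.0066), and it was 1.01 with lymphocyte markers as a covariate (adjusted p = 0.999). In lung Ccl5 peaked at CT6.4 (1.25-fold, adjusted p = 0.0092) and in kidney at CT8.1 (1.15-fold, adjusted p = 0.032). Both calls were lost with lymphocyte markers as a covariate (adjusted p = 0.069 and 0.17), and that of kidney also without the arrays that stand apart (adjusted p = 0.067). Muscle differed from both, while lung and kidney did not pass the test of a difference (adjusted p = 0.86).

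Ccl3, or MIP-1 alpha, was rhythmic in lung, with arrays from 5.63 to 7.10 (median 6.32), a fold of 1.479 (1.19 to 1.84) and a peak at CT5.6 (adjusted p = 0.027). The call was lost with lymphocyte markers (adjusted p = 0.26) and with macrophage and neutrophil markers (adjusted p = 0.052) as a covariate. Ccl2, or MCP-1, the main ligand of Ccr2, was rhythmic in white adipose from 6.99 at CT64 to 8.29 at CT20, with a fold of 1.47 (1.21 to 1.78) and a peak at CT0.7 (adjusted p = 0.041). That call was lost under 7 of 11 settings. Ccl6 and Ccl9 are Ccr1 ligands of mouse myeloid cells. Ccl6 peaked at CT16.1 in heart (1.24-fold, adjusted p = 0.0081) and at CT17.0 in lung (1.17-fold, adjusted p = 0.03). Ccl9 peaked at CT16.5 in heart (1.19-fold, adjusted p = 0.041) and at CT0.5 in liver (1.19-fold, adjusted p = 0.007), a pair of waves that did not pass the test of a difference (adjusted p = 0.16). The heart calls were lost with macrophage and neutrophil markers as a covariate (adjusted p = 0.077 for Ccl6 and 0.27 for Ccl9), that of Ccl9 under 3 other settings too. The lung call of Ccl6 was lost under 3 settings, with an adjusted p up to 0.13. In brown adipose Ccl6 (1.61-fold, adjusted p = 0.079) and Ccl9 (1.42-fold, adjusted p = 0.058), both with peaks near those of Cxcl13 at CT20.4 and CT20.2, missed the threshold.

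Ccl11, or eotaxin, which attracts eosinophils through Ccr3, peaked at nearly the same hour wherever it was rhythmic. It passed in 6 tissues (2.82% of all genes in at least 6), and all 6 peaks fell between CT8.4 and CT10.0, late in the subjective day. In skeletal muscle its arrays ran from 8.90 at CT20 to 9.79 at CT34 (median 9.36), with a fold of 1.478 (1.34 to 1.63) and a peak at CT8.4 ± 0.5 (SE; adjusted p = 1.3e-05). Its lowest muscle arrays, at CT20 and CT44, belong to the 7 arrays of high Cxcl13. In aorta it ran from 8.59 at CT46 to 9.39 at CT32 (1.39-fold, 1.23 to 1.56, peak CT9.0, adjusted p = 0.0023).

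Brown adipose (1.33-fold, peak CT10.0), heart (1.28-fold, peak CT9.2), adrenal gland (1.24-fold, peak CT9.6) and lung (1.15-fold, peak CT9.1) peaked at like hours. Of the 15 pairs among the 6 tissues 1 differed, lung against muscle (adjusted p = 0.022), where 9.96% of such tests passed over all genes. Pairs that did not pass are not thereby shown to have the same wave. White adipose, the tissue of the highest Ccl11 mean, showed a wave of like phase that did not pass (1.24-fold, 1.03 to 1.49, peak CT8.7, adjusted p = 0.35). In muscle the wave was as large with lymphocyte markers as a covariate (1.54-fold, adjusted p = 0.00087) and without the 7 arrays of high Cxcl13 (1.45-fold, adjusted p = 0.0097). Adrenal gland lost its call under quantile normalization (adjusted p = 0.074) and with a straight line in time as a covariate (adjusted p = 0.085). Lung lost it with lymphocyte markers (adjusted p = 0.057), a straight line, or macrophage and neutrophil markers as a covariate. The adjusted p in lung reached 0.068 under these settings.

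Neighbours of Ccl11 on chromosome 11 gave no call beside it. Ccl11 lies at 82057832 to 82062955 (GRCm38.p6), with Ccl2 and Ccl7 before it and Ccl12 and Ccl8 after it. None of these 4 was rhythmic in any of the 6 tissues, with adjusted p from 0.14 to 0.99. Of the 36 members 12 lie on chromosome 11 and 13 on chromosome 5.

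Ccl28 in kidney ran from 7.94 at CT44 to 9.19 at CT50 (median 8.41), with a fold of 1.42 (1.15 to 1.75) and a peak at CT6.7 (adjusted p = 0.033). Its first day peaked at CT8.8 and its second at CT3.7, and the call was lost with lymphocyte markers as a covariate (adjusted p = 0.3). Ccl17 was the only member rhythmic in hypothalamus (1.26-fold, 1.17 to 1.37, peak CT10.4, adjusted p = 0.0047), from 6.90 to 7.52 (median 7.12). Ccl24, eotaxin-2, was rhythmic in aorta (1.28-fold, peak CT16.0), kidney (1.14-fold, peak CT12.4) and liver (1.16-fold, peak CT19.5), and none of its pairs of tissues passed the test of a difference (adjusted p from 0.11 to 0.22). Ccl20, the Ccr6 ligand, was rhythmic in liver (1.2-fold, peak CT10.9, adjusted p = 0.036) and Ccl22, a second Ccr4 ligand, in muscle (1.25-fold, peak CT20.3, adjusted p = 0.048). Ccl22 in muscle held in 4 of 10 settings and had an adjusted p of 0.86 with lymphocyte markers as a covariate. Ccl20 in liver was lost with a straight line, with macrophage and neutrophil markers, and under array weights (adjusted p up to 0.12). Ccl24 was lost in aorta under quantile normalization and on the rank scale (adjusted p up to 0.088). In kidney it was lost under quantile normalization and with a straight line (adjusted p up to 0.15). In liver it was lost with macrophage and neutrophil markers (adjusted p = 0.27).

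Of the transmembrane ligands, Cxcl16 binds Cxcr6 on T cells and Cx3cl1 binds Cx3cr1. Cxcl16 peaked around the start of the subjective day in adrenal gland (CT1.5, 1.21-fold), kidney (CT2.0, 1.16-fold, adjusted p = 7.6e-05) and liver (CT21.9, 1.23-fold, adjusted p = 0.0011). None of its 3 pairs of tissues passed the test of a difference (adjusted p from 0.2 to 0.97, against 14% over all genes). Cx3cl1 peaked at CT7.6 in brown adipose (1.18-fold) and at CT7.9 in lung (1.22-fold, adjusted p = 0.00072), but at CT22.3 in brainstem (1.12-fold, adjusted p = 0.021). Lung and brainstem differed (adjusted p = 0.016, 1 of 3 pairs, against 9.06% over all genes), but the test over all 12 tissues did not call Cx3cl1 (adjusted p = 0.18). The brainstem call was lost under 3 settings, with an adjusted p up to 0.094, and that of brown adipose with macrophage and neutrophil markers as a covariate (adjusted p = 0.15). In hypothalamus, its highest tissue, Cx3cl1 was not rhythmic.

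Cxcl14 and Cxcl17 are constitutive ligands of skin and mucosal epithelium. Cxcl14 was the only member rhythmic in cerebellum (1.10-fold, 1.06 to 1.15, peak CT12.5, adjusted p = 0.0068), and it peaked at CT12.0 in lung (1.13-fold) and at CT21.0 in muscle (1.23-fold, adjusted p = 0.0068). The muscle call was lost with lymphocyte markers as a covariate (adjusted p = 0.27). Cxcl17 was rhythmic in lung (1.23-fold, 1.13 to 1.33, peak CT8.7, adjusted p = 0.0019), its highest tissue, and in kidney (1.14-fold, peak CT11.3, adjusted p = 0.046). Xcl1, or lymphotactin, was rhythmic in brainstem (1.16-fold, peak CT13.9, adjusted p = 0.031) with arrays from 4.79 to 5.26.

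The test of a difference between tissues, fitted to all 288 arrays, called 23 of 36 members (63.9%), against 49.6% of all genes. Cxcl12 (adjusted p = 8.8e-19) and Cxcl13 (adjusted p = 8.3e-14) led, followed by Cxcl11 and Ccl11. For Ccl11, the 6 tissues without a call had folds between 1.05 and 1.24 that did not pass. In skeletal muscle, 2 of 36 members remained rhythmic without the 7 arrays of high Cxcl13, and these were Ccl11 and Cxcl12, both of the 6 called with all arrays. Over all genes 510 were rhythmic in that fit, against 1020 with all arrays. The 7 arrays were chosen by Cxcl13 itself, so the loss of its call was fixed by the choice. They are all arrays from CT20 to CT24 and from CT42 to CT48, so waves that peak near those hours were hardly sampled.

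Receptors were read beside their ligands. Of 18 receptor genes 17 were measured, and lung had the most rhythmic ones, 6 of 17 (20.9% of all genes there). These included Cx3cr1 (1.43-fold, peak CT2.6, adjusted p = 2.8e-05), Ccr7 (1.32-fold, peak CT4.6, adjusted p = 0.00027), Ccr2 (1.47-fold, peak CT1.0, adjusted p = 0.0033) and Cxcr5 (1.3-fold, peak CT4.1, adjusted p = 0.0094). The lung wave of Cxcl13 peaked at CT19.3, that of its receptor Cxcr5 at CT4.1. Ccl19 peaked there at CT10.4 beside CT4.6 for its receptor Ccr7, and Cx3cl1 at CT7.9 beside CT2.6 for Cx3cr1.

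Cxcr4, the receptor of Cxcl12, was rhythmic in white adipose (1.47-fold, peak CT19.6, adjusted p = 0.02), brown adipose (1.27-fold, peak CT18.0), skeletal muscle (1.19-fold, peak CT21.0) and kidney (1.16-fold, peak CT8.1). Cxcl12 peaked in the same organs at CT6.9, CT5.8, CT2.0 and CT14.3. The scavenger receptor Ackr3, which also binds Cxcl12, was rhythmic in kidney (1.46-fold, peak CT19.4, adjusted p = 7.8e-06) and heart (1.23-fold, peak CT19.9). Whether ligand and receptor differ in phase was not tested. Among adhesion genes 6 of 10 were rhythmic in lung, led by Vcam1, Itgal, Icam2 and Selplg, and among inducing cytokines and receptors 5 of 17 in kidney (25.8% of all genes there). Atypical receptors had 3 of 6 rhythmic genes in lung (20.9% of all genes) and in heart (8.64%).

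Single arrays with values far from the tissue median, by at least 1 log2 unit and 5 scaled MAD, were counted as excursions without a test. There were 20 in 12 pairs of 8 members (2.78% of pairs, against 1.04% of all pairs of gene and tissue), all upward. Skeletal muscle held 3 of these pairs, of Cxcl13, Ccl5 and Ccl19 (0.652% of all genes there). Brown adipose (0.256%), adrenal gland (1.53%) and white adipose (3.81%) held 2 each, and aorta (1.41%), heart (1.08%) and hypothalamus (0.492%) 1 each. Liver (2.88%), lung (0.176%), kidney (0.135%), cerebellum (0.0401%) and brainstem (0.0150%) held none. Cxcl13 in heart rose to 10.30 at CT62 against a median of 6.88, and the arrays at CT48, CT50, CT54, CT56 and CT58 read between 8.12 and 9.19. B cell markers read 6.24 on the CT62 array, the highest of that tissue, against a median of 5.86, and hepatocyte markers 7.12 against 6.07. Cxcl13 in adrenal gland read 9.62 at CT32 against a median of 6.54, with only 8 genes (0.0401%) as upward excursions on that array, a B cell mean of 5.56 against 5.33 and a hepatocyte mean of 10.74 against 9.30.

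Ccl5 reached 8.99 in aorta at CT54 (median 7.51), where the B cell mean was 6.45 against 5.69, and 8.80 in brown adipose at CT56 (median 7.62), where it was the only gene of all to pass upward. Ccl8, a monocyte ligand, reached 6.46 in brown adipose at CT42 (median 5.30), the array of the highest Cxcl13 of that tissue. That array was also the tissue's highest for macrophage (7.94 against a median of 7.36), mast cell (6.79 against 6.18) and skeletal muscle markers (11.77 against 10.20). Ppbp reached 6.86 in hypothalamus at CT18 (median 5.55), Ccl9 8.75 in adrenal gland at CT50 (median 7.21) and Ccl17 7.85 in white adipose at CT22 (median 6.76). On the adrenal array at CT50 the hepatocyte markers read 12.20 against 9.30, and Ccl9 is a gene of highest level in liver. The part of other tissue in these single arrays was not tested.

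A straight trend over the 2 days was found in 0 of 432 pairs by limma (0.427% of all pairs of gene and tissue). Over all genes the share was 2.97% in kidney, 1.74% in skeletal muscle and 0.416% in brainstem. At an unadjusted p under 0.05 there were 37 pairs (8.56%, against 11.1% of all). Cx3cl1 in kidney came closest, with a rise of 0.096 log2 units per day (adjusted p = 0.056).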

How the data were processed

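RNA of whole organs was hybridised to 288 Affymetrix arrays. The submitters' processing notes name Affymetrix Expression Console and GCRMA, without order, and the deposited table holds linear intensity values (6.9 to 45307.8, array medians 95.2 to 106.6). Here log2 intensity was used with no further normalization. Probe sets with 1 symbol were kept (21789 of 35556). 7 chemokine probe sets with several symbols were left out. In each tissue a 24 h cosine and sine were fitted to all genes with limma 3.58.1 in R 4.3.3 (moderated F, trended prior, Benjamini-Hochberg over 19938 genes), after a self-test on simulated data. Differences between tissues were tested with an interaction F over 288 arrays, and pairs of tissues, added after the data were seen, with adjustment over all genes and 66 pairs. Intervals are at 95%. Named genes are the members and the genes of the lists of receptors, inducers and cell markers. Members and lists were chosen with earlier results of these data known. Tables were made with Python 3.11.15, pandas 2.3.3 and numpy 2.4.6. The number of arrays limits the precision. Alternatives were other normalization, offset, filter, prior, ranks, covariates, array weights, probe sets and left-out arrays.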

Additional observations from a re-analysis of the deposited data

Results flagged for a closer look

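The 24 h wave of 23 of the 36 members differed between tissues by the interaction test of limma over all arrays, adjusted over all genes. Among the homeostatic ligands the adjusted p was 8.77e-19 for Cxcl12, 8.35e-14 for Cxcl13, 1.95e-06 for Ccl19 and 0.000139 for Ccl25. For the interferon induced ligands it was 9.65e-10 for Cxcl11, 0.000502 for Cxcl10 and 0.00853 for Cxcl9. Monocyte and T cell ligands gave 2.1e-08 for Ccl5, 1.66e-06 for Ccl9, 3.89e-05 for Ccl3, 6.88e-05 for Ccl6, 0.00209 for Ccl2 and 0.00416 for Ccl8. Ccl8 differed between tissues although it was rhythmic in none of them, where each tissue was tested against its own spread. Type 2 and mucosal ligands gave 1.08e-08 for Ccl11, 5.73e-05 for Ccl24, 0.000386 for Ccl28, 0.0111 for Ccl22 and 0.015 for Ccl17. The remaining ones were Cxcl5 with 1.27e-07, Cxcl16 with 0.000625, Ppbp with 0.00122, Cxcl14 with 0.0109 and Pf4 with 0.0127.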

How the results depend on the processing

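Rhythmic pairs numbered between 48 (rank scale) and 82 (array weights), beside 67, and 46 to 67 of them were shared with the 67. In skeletal muscle the 6 rhythmic members became 1 on the rank scale, 2 with lymphocyte markers as a covariate, 2 without the arrays that stand apart and 11 with array weights. All genes moved likewise there, from 5.12% to 1.73%, 2.07%, 2.88% and 10.5%. Members became 2, and all genes 510 in place of 1020, without the 7 arrays of high Cxcl13. That setting was chosen after seeing the data and by Cxcl13 itself, and it leaves out the arrays around the Cxcl13 peak. Ccl5 in muscle turned direction with lymphocyte markers as a covariate, with an adjusted p of 0.999. Of 656 results for single pairs, 560 kept direction and side of the threshold and 95 lost the call. Pairs with a single-array excursion went from 12 to 3 on residuals from the wave (0.694%, against 0.498% of all pairs of gene and tissue). They went to 21 at 0.5 log2 units and 5 scaled MAD (4.86%, against 3.37%). At 1 log2 unit and 8 scaled MAD they went to 5 (1.16%, against 0.651%). Straight trends went from 0 to 2 under quantile normalization. Members that differed between tissues numbered 21 to 26. The labels used here do not say whether the arrays of 1 time point in different tissues come from the same mice. Their residuals correlated weakly (mean r 0.0389, against -0.00149 for other times, with 529 of 1584 pairs over 0.1 and time-point means from 0.00704 to 0.0803), and with time point as a replicate block 25 members differed, beside 23. The cause of these changes was not tested. Arrays without replicates at a time point, whole-organ RNA and levels normalized apart by tissue limit all values.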

Other observations

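Probe sets shared by several Ccl21 copies, ligands of Ccr7 on lymphatic vessels and T cell zones, were outside the family counts because the copies cannot be told apart. Their 4 probe sets hold identical values. The mean was 10.52 in lung, 10.15 in white adipose, 9.51 in heart, 9.14 in skeletal muscle and 7.26 in liver. In muscle the highest array was 9.78 at CT46, the array of the highest Cxcl13. No array of these probe sets was an excursion.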
